A study of Caenorhabditis elegans with 2 samples.

Results

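The tRNA genes of the X chromosome of the nematode *Caenorhabditis elegans* were examined in chromatin recovered with NHR-111, a transcription factor of the nuclear hormone receptor class. They were all genes of the biotype tRNA on X in the Ensembl annotation of the genome assembly WBcel235, also called ce11, with no pseudogenes. There were 276 of them, which is 45.1% of the 612 nuclear tRNA genes and part of 46890 nuclear genes of all kinds. The worms were whole L4 larvae of strain OP569, 48 h old, pooled from males and females after a bleach and starvation at the L1 stage. The strain carries the unc-119(tm4063) mutation and 1 integrated transgene, wgIs569, which supplies nhr-111::TY1::EGFP::3xFLAG together with an unc-119(+) rescue. Chromatin was sonicated and the GFP tag precipitated with an antibody. The series is a single group with 2 biological replicates. Both replicates were called against 1 shared control alignment. No library from worms with another tagged protein, or with none, was analysed here, so recovery that needs NHR-111 and recovery that does not cannot be told apart. Whole larvae were used, so no tissue can be assigned to a peak.

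Transfer RNAs carry amino acids to the ribosome, and each isotype carries 1 kind of amino acid. Their genes are transcribed by RNA polymerase III from a promoter inside the gene. The A box and the B box in the transcribed sequence are bound by the factor TFIIIC, which places TFIIIB just upstream of the start and so brings in the polymerase. Transcription ends at a short run of T after the gene. The genes are short and occur in many identical copies, some alone and some in clusters, and the X chromosome of this worm holds a large share of them.

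Each gene was scored by the authors' signal value of the strongest interval whose summit lay within 250 bp of the gene start. The pooled list, the list of each replicate and the thresholded list were scored alike. The thresholded list holds the 501 peaks kept by a limit on the irreproducible discovery rate, which measures how well the ranks of peaks agree between replicates. Its lowest signal was 101.5, and no X tRNA gene outside it had more than 101.02 in the pooled list. For these genes it thus follows the pooled signal, and a listed peak need not be strong in each replicate. A gene with no summit in reach was called not scored. The sources used here do not state the scale of this signal. The lists carry no read totals either, and the sequencing depth is therefore unknown. Each full list holds 30000 intervals and includes background by design, down to a signal of 32.1 in the pooled list, 17.5 in replicate 1 and 18.8 in replicate 2.

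The sequences that the results turn on show how alike the genes are and how unlike their surroundings can be. They were read from the RefSeq FASTA of WBcel235 and run 5′ to 3′. The first is the locus under the highest peak at any X tRNA gene, chrX:9743589-9743818 on the plus strand, with the alanine genes F15G9.t1 (anticodon TGC) and F15G9.t2 (anticodon AGC) in capitals. The spacer between them is in lower case.
F15G9 locus: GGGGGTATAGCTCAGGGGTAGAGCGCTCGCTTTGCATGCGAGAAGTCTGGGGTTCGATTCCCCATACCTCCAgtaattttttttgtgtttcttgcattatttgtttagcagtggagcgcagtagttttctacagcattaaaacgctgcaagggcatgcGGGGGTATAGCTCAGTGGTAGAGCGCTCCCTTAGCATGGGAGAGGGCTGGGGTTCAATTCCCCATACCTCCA

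The next set gives 1 gene each of 5 isotypes, with the matches to the A box (searched as TNGNNNANNNG) and to the B box (searched as GTTCNANNC) in capitals. F46G11.t2 lies at chrX:5801211-5801282, C06G1.t1 at chrX:16634830-16634901 and F32A6.t1 at chrX:5319385-5319457, all on the minus strand. C02B4.t2 lies at chrX:12665228-12665311 and C04A11.t1 at chrX:13665555-13665673, both on the plus strand, and each holds an intron between the boxes.
F46G11.t2 (Pro): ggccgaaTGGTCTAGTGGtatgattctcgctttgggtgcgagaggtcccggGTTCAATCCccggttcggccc
C06G1.t1 (His): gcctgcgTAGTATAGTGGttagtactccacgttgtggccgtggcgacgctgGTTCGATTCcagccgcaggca
F32A6.t1 (Phe): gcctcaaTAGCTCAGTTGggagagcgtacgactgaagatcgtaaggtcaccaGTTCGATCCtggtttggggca
C02B4.t2 (Tyr): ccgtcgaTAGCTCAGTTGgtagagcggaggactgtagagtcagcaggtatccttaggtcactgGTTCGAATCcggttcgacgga
C04A11.t1 (Leu): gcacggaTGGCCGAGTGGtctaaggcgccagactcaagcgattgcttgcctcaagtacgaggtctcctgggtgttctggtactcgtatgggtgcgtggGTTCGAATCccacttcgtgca

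The last set gives the 60 bases before genes of identical sequence, for a copy with a thresholded peak and a copy that was not scored in any list. The proline genes F46G11.t2 and ZK678.t3 matched at 19 of 60 upstream positions, the alanine genes F15G9.t2 and C56G3.t1 at 19 and the histidine genes C06G1.t1 and F28H6.t4 at 23, although the genes themselves were identical within each pair. No pair of copies that both have a peak was compared, so these counts cannot tie the upstream stretch to the peak. F28H6.t4 also lies where little of the sequence occurs once in the genome, as described below.
F46G11.t2 upstream (peak): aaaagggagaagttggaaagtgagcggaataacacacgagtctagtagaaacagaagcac
ZK678.t3 upstream (not scored): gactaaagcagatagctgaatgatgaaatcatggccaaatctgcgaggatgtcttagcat
F15G9.t2 upstream (peak): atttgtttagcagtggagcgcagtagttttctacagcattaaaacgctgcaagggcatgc
C56G3.t1 upstream (not scored): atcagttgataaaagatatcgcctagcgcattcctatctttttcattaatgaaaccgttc
C06G1.t1 upstream (peak): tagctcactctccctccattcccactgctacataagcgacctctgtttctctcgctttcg
F28H6.t4 upstream (not scored): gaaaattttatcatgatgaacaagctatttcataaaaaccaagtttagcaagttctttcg

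A thresholded peak lay at 82 of the 276 X tRNA genes, or 29.7%, while the share over all 46890 genes was 1.12%. The exact 95% interval, 24.4 to 35.5%, covers only the counting of genes, and genes that share a peak are not independent. The 82 genes lay at 72 peaks, of which 10 were reached from the starts of 2 genes each. Among the 501 strongest intervals of each replicate, 71 X tRNA genes (25.7%) had one in replicate 1, where the share of all genes was 0.96%, and 70 (25.4%) in replicate 2, where it was 1.02%. The mean of the replicates was 25.5% ± 0.256 (SD, n = 2). In the full lists, 210 X tRNA genes were scored in the pooled list (all genes, 15%), 197 in replicate 1 (all genes, 14.6%) and 213 in replicate 2 (all genes, 15.1%). Of the 108 thresholded peaks on X, 72 lay at tRNA genes with a median signal of 136, and the 36 elsewhere on X had a median of 120. In the full pooled list the median signal was 82.5 over the 199 intervals on X with a summit near a tRNA start and 42.4 over the other 4835. These medians were 40.3 and 23.0 in replicate 1, and 42.5 and 25.03 in replicate 2, so the intervals at tRNA genes had the higher median in each list.

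The share on X stood above that on the 5 autosomes, where 83 of 336 tRNA genes (24.7%) had a thresholded peak. The difference was 5.01 percentage points, and it was 4.89 in replicate 1 and 5.12 in replicate 2. Chromosome II (29.8%) had about the same share as X, and chromosomes III (28.1%), IV (25.4%), I (21.2%) and V (20.5%) had lower ones. The median pooled signal of the scored genes was close, 85.5 on X and 84.2 on the autosomes. With each shared interval counted once, the shares were 28.8% on X and 24.8% on the autosomes.

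The replicates ranked the X genes alike. Both scored 181 genes, 16 were scored in replicate 1 only, 32 in replicate 2 only and 47 in neither. Replicate 2 gave the higher values, with a median ratio of replicate 2 to replicate 1 of 1.13 (range 0.481 to 2.61), and the SD of the pair was 17.05% of its mean in the median gene. The median ratio over autosomal tRNA genes was 1.11, so the lean to replicate 2 is not particular to X. Spearman's rho across the 181 genes was 0.75, and 0.746 over 161 pairs of intervals that were each counted once. Over 235 autosomal tRNA genes it was 0.512. These are descriptions across genes, which share intervals, a control alignment and the 2 libraries. Of the 82 thresholded genes, 80 were scored in both replicates and 52 belonged to the strongest intervals in each. Another 10 were among the strongest in replicate 1 only, 15 in replicate 2 only and 5 in neither.

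**Figure D1:**
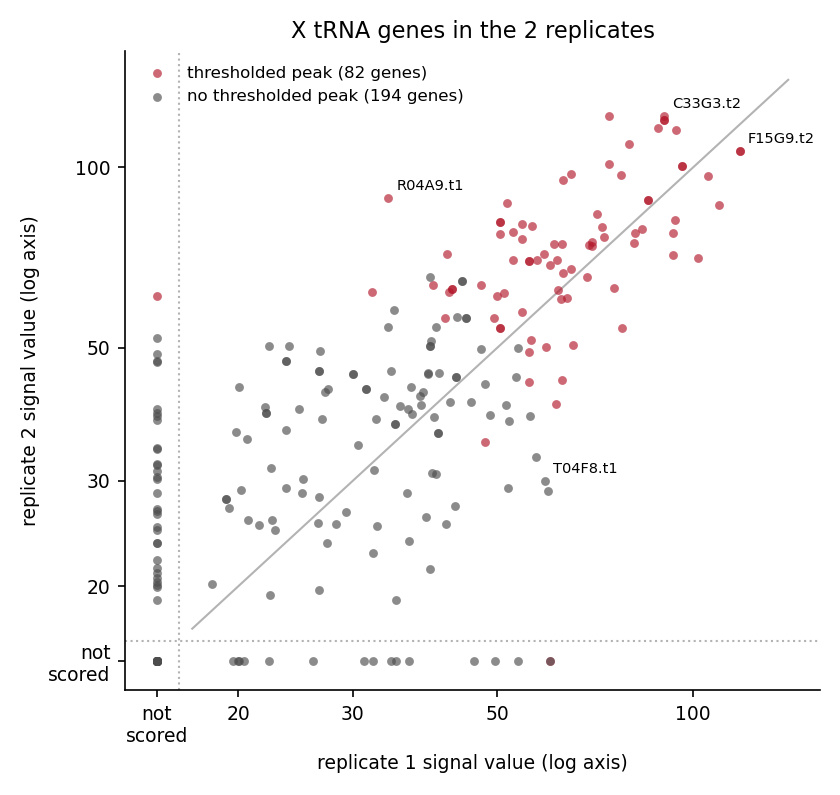
Signal value of each X tRNA gene in replicate 1 (x axis) and replicate 2 (y axis), both on log axes in the authors' units, with genes that were not scored drawn beyond the dotted lines and the grey diagonal marking equal values. Red points are the 82 genes with a thresholded peak and grey points the other 194. Most red points lie in the upper right, and R04A9.t1 is the farthest from the diagonal among red points scored in both replicates.

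Single genes could differ widely between the replicates. The glutamine gene R04A9.t1 had a thresholded peak with a pooled signal of 119, but 34.0 in replicate 1 and 88.8 in replicate 2. The valine gene C16H3.t2 (20.03 in replicate 1 and 42.9 in replicate 2) and the histidine gene C49F5.t1 (22.3 and 50.3) leaned the same way and had no thresholded peak. The opposite lean was largest in the phenylalanine gene T28B4.t1 (59.9 in replicate 1 and 28.8 in replicate 2), the asparagine gene T04F8.t1 (59.1 and 29.99) and the leucine gene C05C9.t2 (39.4 and 21.4). None of these 3 had a thresholded peak. In all, the ratio was over 1.5 in 33 genes and below the inverse of 1.5 in 10. These limits are set around a ratio of 1, while the median ratio was 1.13.

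The highest peaks were spread over isotypes and over the chromosome. F15G9.t1 and F15G9.t2, the alanine genes whose locus is printed above, share an interval with a pooled signal of 224, with 118 and 106 in the replicates (112 ± 8.10, mean and SD, n = 2). That interval ranked 25 in the pooled list, 14 in replicate 1 and 49 in replicate 2. Its summit falls in the spacer, 52 bp before the start of F15G9.t2 and 106 bp after that of F15G9.t1. Both genes lie on the same strand inside him-4, which encodes hemicentin, a protein of the extracellular matrix. They are not copies of each other, since 65 of their 72 bases are the same.

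The lysine gene C33G3.t2 came next, with 218 in the pooled list, 90.2 in replicate 1 and 122 in replicate 2. The glycine gene M02F4.t1 and the glutamate gene M02F4.t2 are transcribed away from each other, with their starts 117 bp apart, and share an interval of 212 (90.1 in replicate 1 and 120 in replicate 2). The aspartate gene F38G1.t2 reached 209 (88.3 and 116), inside and opposite to egl-17, which encodes a fibroblast growth factor. It is 1 of 2 thresholded peaks of X tRNA genes with a protein-coding start also in reach.

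The asparagine gene F41D9.t3 reached 207 (94.0 in replicate 1 and 115 in replicate 2), opposite to its host sulp-3, a gene of the sulfate permease family. A second aspartate gene, T14F9.t1, reached 202 (105 and 96.9) and a second lysine gene, W03G11.t1, 197 (110 and 86.5). The divergent serine genes C53C7.t1 and C53C7.t2 share an interval of 195 (96.1 and 100.5). Each replicate had all of these genes within its 501 strongest intervals. At the other end, the weakest members inside the thresholded list were the serine pair Y7A5A.t1 and Y7A5A.t4 at 102.4 and the alanine gene F18G5.t1 at 101.8. Just outside stood the proline gene Y59E1B.t2 at 101.0, the threonine gene C40C9.t1 at 100.7 and the asparagine gene ZK154.t2 at 100.3, so the limit of the list passes through a continuous run of values.

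Every isotype was represented. The annotation gives a product for 273 of the 276 genes, over 20 isotypes, and each isotype had at least 1 gene with a thresholded peak. An anticodon was found for 271 genes, of 44 kinds together with the isotype, and 38 of these kinds had a thresholded gene. The alanine genes had peaks most often, at 10 of 13 (76.9%, exact 95% interval 46.2 to 95.0%), with 10 among the strongest intervals of replicate 1 and 8 of replicate 2 (mean 69.2% ± 10.9, SD, n = 2). On the autosomes 8 of 21 alanine genes (38.1%) had one. Histidine stood lowest on X, at 1 of 9 (11.1%), against 3 of 11 (27.3%) on the autosomes. Most of the histidine genes on X lie in the single cluster F28H6, described below. The share of 31-letter words around the gene that occur once in the genome had a median of 56.3% for histidine on X. On the autosomes it was 88.7%, and its part in the low share was not tested.

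The alanine genes with peaks carried all 3 alanine anticodons present on X. Anticodon AGC had 7 of 9 genes with a peak, TGC 2 of 3 and CGC its only gene, K02A4.t2 (139 in the pooled list, 54.6 in replicate 1 and 80.6 in replicate 2). The exceptions were T07H6.t1 with 88.9 (57.4 in replicate 1 and 32.8 in replicate 2), which lies opposite to lev-9, F48E3.t1 with 64.7 (40.2 and 30.8), and C56G3.t1, which was not scored in any list and lies opposite to the neuropeptide receptor gene npr-8. Of the 13 genes, 10 are single and 3 belong to a pair of neighbours, the arrangements with the larger shares of peaks on X.

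Among the other isotypes, glutamine (6 of 15, 40%), serine (7 of 18, 38.9%), tyrosine (3 of 8), threonine (5 of 14), proline (7 of 20), asparagine (2 of 6) and glutamate (7 of 23) stood above the share of all X tRNA genes. Leucine followed with 5 of 17, arginine with 7 of 27, glycine with 5 of 20, aspartate with 3 of 12 and methionine with 2 of 8. Isoleucine (3 of 13), lysine (4 of 18), tryptophan (1 of 5), phenylalanine (1 of 6), cysteine (1 of 7) and valine (2 of 14) had the lowest shares after histidine. With 5 to 27 genes each, most of these shares have exact intervals that overlap widely.

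The highest gene of an isotype was often far above the rest of it. Isoleucine had C42D8.t1 at 193 (74.3 in replicate 1 and 122 in replicate 2) over an isotype median of 76.9. Histidine had C06G1.t1 at 156 (81.1 and 74.8) over a median of 71.0. Tryptophan had sup-7 at 134 (54.7 and 75.8) over a median of 45.8.

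The tryptophan genes are known from genetics, because mutations in several of them make tRNAs that read the amber stop codon as tryptophan. Of the 5 on X, sup-7, sup-21, sup-28 and sup-33 have the same sequence. sup-21 had 45.1 in the pooled list and 34.0 in replicate 2 and was not scored in replicate 1, and sup-28 and sup-33 were not scored in any list. Only sup-7 among the 4 had a thresholded peak.

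Further highest members of their isotypes were R01H5.t1 for threonine at 178 (102 in replicate 1 and 70.7 in replicate 2), R04D3.t2 for valine at 172 (77.5 and 97.2) and the divergent proline pair F46G11.t1 and F46G11.t2 at 172 (85.2 and 88.2). C04A11.t1 led leucine with 171 (74.2 and 101.2) and C02B4.t2, opposite to the nuclear hormone receptor gene nhr-17, led tyrosine with 167 (83.4 and 78.9). F42D1.t1 led cysteine with 158 (81.5 and 77.8) and F09B9.t1 arginine with 153 (64.9 and 97.6). C02F12.t1 led methionine with 146 (69.8 and 75.2), F32A6.t1, inside the stomatin gene sto-2, phenylalanine with 140 (68.7 and 65.6), and the divergent pair H35N09.t1 and H35N09.t2 glutamine with 126 (55.9 and 69.7). All of these were scored in both replicates.

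**Figure D2:**
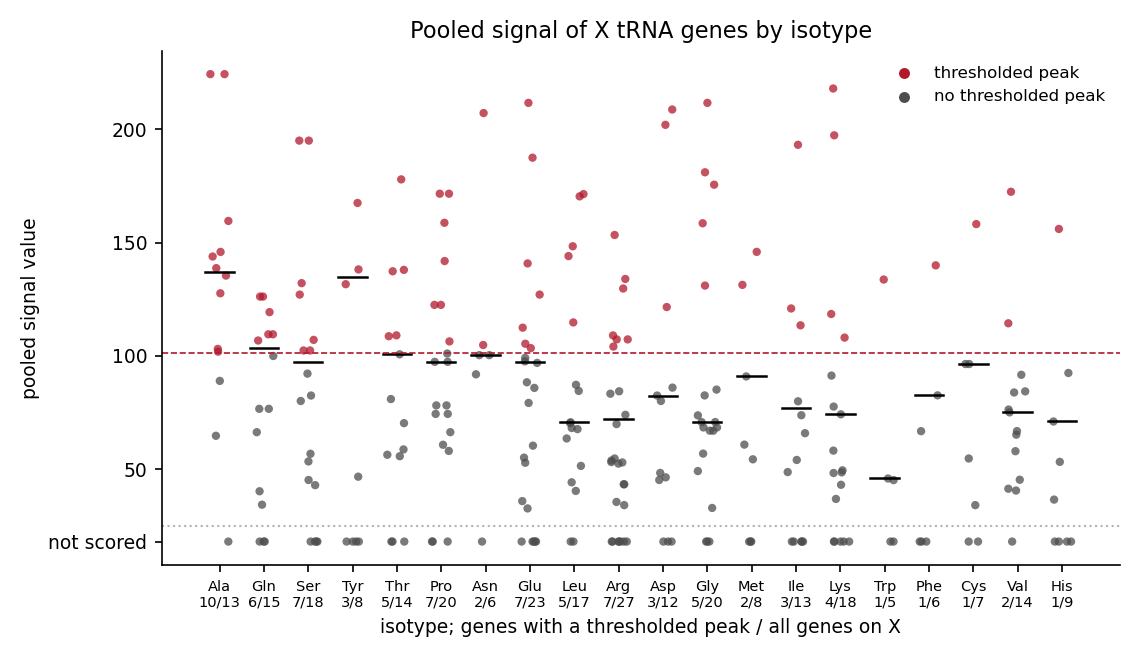
Pooled signal value (y axis, authors' units) of the 273 X tRNA genes with an isotype, in columns ordered by the share of genes with a thresholded peak, with genes that were not scored below the dotted line and the median of the scored genes as a black bar. The dashed red line is the lowest signal in the thresholded list, 101.5, and alanine is the isotype with 10 of 13 genes above it.

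Within an isotype, anticodons could differ. Of the arginine genes on X, none of the 6 with anticodon TCG had a thresholded peak (exact 95% upper limit 45.9%), 4 of 13 with ACG had one and 2 of 4 with TCT. All 3 autosomal TCG genes had a peak. Glutamate genes with TTC had 4 of 8 on X and 0 of 9 on the autosomes, while those with CTC had 3 of 15 on X and 3 of 9 on the autosomes. One leucine gene in 10 with AAG and 1 valine gene in 10 with AAC had a peak on X. Tyrosine had 3 of 8 on X and 0 of 11 on the autosomes. These contrasts were picked from 44 kinds after their values were seen.

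Copies of the same sequence did not share 1 level. The 276 genes hold 106 distinct sequences, and 203 genes have an identical copy elsewhere on X. There are 29 sequences with at least 3 copies on X, 195 genes in all. In 25 of these 29 groups, some copies had a thresholded peak and others did not, in 4 no copy had one, and in none did every copy. The share over all X tRNA genes was 29.7%, and at that share most sets of this size would be mixed whatever their sequence. These counts therefore show no trait particular to identical copies. In 21 groups some copies were scored in the pooled list and others were not. Over the scored copies of a group, the highest signal was 3.14 times the lowest in the median group and 6.49 times at most.

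The largest group shows the spread. The proline sequence with anticodon TGG printed above has 13 copies on X and 24 in the genome. Of the 13, 11 were scored in the pooled list, between 58.0 and 172, and 5 had a thresholded peak. F46G11.t1 and F46G11.t2 stood highest, H06A10.t1 had 159 and C48C5.t1 142, while ZK678.t3, inside srxa-9, and C48C5.t3 had no pooled score.

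Of the 12 glutamate copies with CTC, M02F4.t2 stood highest and F52E10.t3 was not scored in any list. Of the 11 glycine copies with TCC, M02F4.t1 stood highest and ZK154.t4 was not scored in any list. The alanine sequence with AGC had 5 thresholded copies of 7, between 103 and 224. The histidine sequence had 1 of 8, C06G1.t1. The arginine sequence with ACG, which occurs only on X, had all 10 copies scored, between 52.4 and 153, and 4 thresholded.

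**Figure D3:**
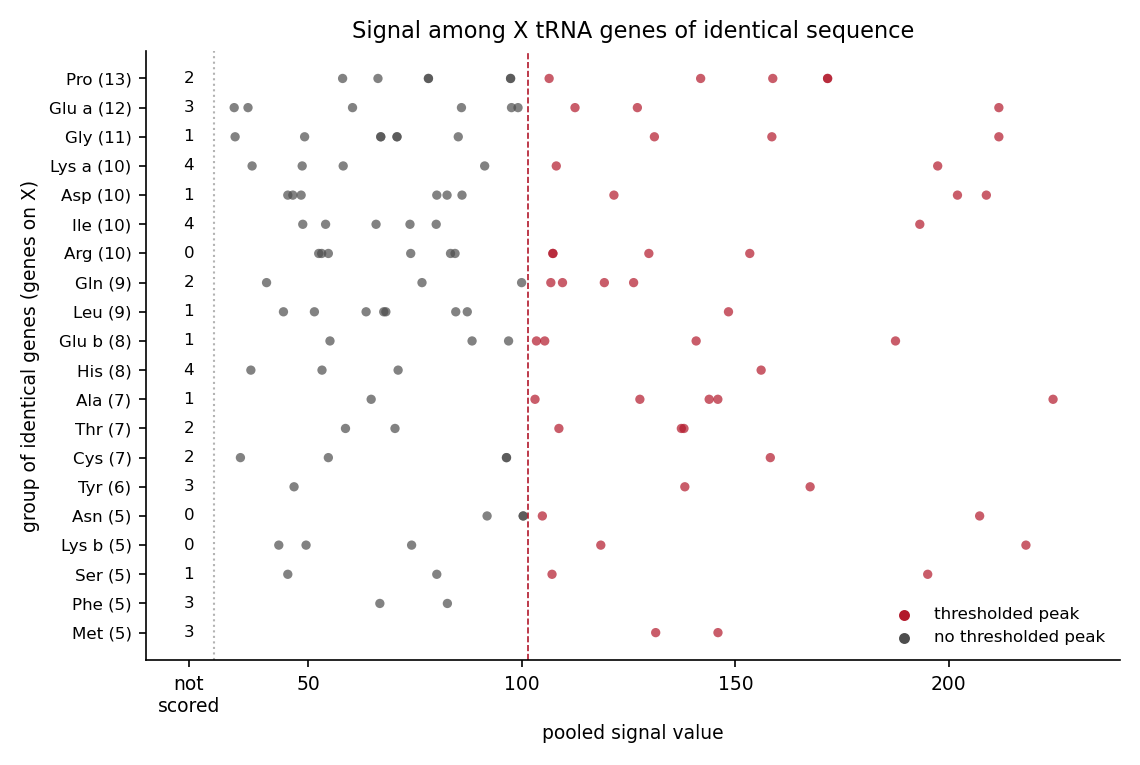
Pooled signal value (x axis, authors' units) of every copy in the 20 groups of identical X tRNA genes with at least 5 copies, each row a group with its number of copies, a and b marking a pair of sequences of the same isotype and the numbers at the left counting copies that were not scored. Red points have a thresholded peak and grey points none, on either side of the dashed line at 101.5, with no copy of Phe above it and, in Met, both scored copies above it and 3 not scored.

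The stretch before the gene differed between copies with and without peaks. Over all X tRNA genes, the GC content of the 100 bases before the gene had a median of 43.5% in the 82 thresholded genes, 38.5% in the 128 genes scored only and 35.5% in the 66 not scored in the pooled list. In the 25 groups of identical sequence with both kinds of copy, the thresholded copies had the higher median GC in 22, the lower in 2 and the same in 1, with a median difference of 9 percentage points. Among single genes, the median was 46% in thresholded genes and 38% in the others. Across the 119 scored single genes, Spearman's rho of upstream GC with the pooled signal was 0.39, as a description across genes that share libraries and a control alignment. The thresholded list follows the same signal, so this rho is not separate from the medians above. GC content can also change how well fragments are amplified and sequenced, and its part in the signal was not tested. On the autosomes the median was 47% in thresholded tRNA genes, 43% in those scored only and 38% in those not scored in the pooled list. That is the same order as on X. These GC comparisons were chosen after the scores were known.

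The promoter inside the gene was nearly always present and so set few genes apart. The A box was found on the gene's strand in 274 of 276 X tRNA genes, and in 7.18% of 46278 windows of 72 bp at the starts of other genes. The B box was found in 268 (97.1%), against 1.76% of those windows. A run of at least 4 T followed 273 genes, and in the median gene it began 5 bases after the end and was 5 long.

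Of the 8 genes with no B box by these letters, 2 had a thresholded peak, the proline genes C16B8.t2 (chrX:3970096-3970167) and C16B8.t3 (chrX:3970265-3970336). They match at 71 of 72 bases and share an interval of 123 (50.5 in replicate 1 and 81.2 in replicate 2). The missing match says only that these letters are not in the gene. C16B8.t2 is shown with its A box in capitals.
C16B8.t2 (Pro): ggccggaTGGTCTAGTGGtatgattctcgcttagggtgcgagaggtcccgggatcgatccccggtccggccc

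Genes with no identical copy anywhere in the genome had a lower share of peaks. Of 55 such genes, 10 (18.2%) had a thresholded peak, against 72 of 221 with further copies (32.6%). The counts were 8 and 63 in replicate 1, and 9 and 61 in replicate 2. On the autosomes 14 of 85 only copies had one (16.5%). Scored genes had a median pooled signal of 70.3 for the 35 only copies and 91.3 for the 175 with further copies. Reads from identical copies are harder to place, and the share of 31-letter words around the gene that occur once in the genome was 90.4% for only copies and 87.7% for the others in the median. Of the 10, C04A11.t1 for leucine (171), F32A6.t1 for phenylalanine (140) and K02A4.t2 for alanine (139) stood highest. Genes with an intron had 5 thresholded of 12 (exact interval 15.2 to 72.3%), against 77 of 264 without. The order was the other way on the autosomes, at 2 of 17 with an intron (11.8%) and 81 of 319 without (25.4%).

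Clustered genes had a lower share of peaks on X. A gene was called clustered when another tRNA gene started within 1000 bp. Of the 145 single genes, 56 (38.6%) had a thresholded peak, of the 78 in pairs 23 (29.5%), and of the 53 in the 14 clusters of 3 or more genes 3 (5.66%). By replicate, 49, 18 and 4 genes were among the strongest intervals of replicate 1, and 46, 19 and 5 among those of replicate 2, in the same order of cluster size. All clustered genes together had 26 of 131 (19.8%), which is -18.8 percentage points from the single genes. This difference depended on the gap, at -11.7 points with neighbours within 500 bp and -9.83 within 5000 bp. The median pooled signal of scored genes was 97.6 in single genes and 70.8 in clusters of 3 or more.

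The autosomes did not show this order, with 59 of 237 single genes (24.9%), 19 of 76 in pairs (25%) and 5 of 23 in larger clusters (21.7%). The difference between X and autosomes was 13.7 percentage points in single genes (replicates 13.1 and 12.3), 4.49 in pairs (3.34 and 4.62) and -16.1 in clusters of 3 or more (-18.5 and -21.0).

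Some sequences occur both in clusters and alone. In 16 groups of identical sequence, some copies stand alone and others lie in clusters of 3 or more. Over these groups, 1 of 42 clustered copies (2.38%) had a thresholded peak, against 22 of 45 single copies (48.9%). The counts were 3 and 19 in replicate 1, and 3 and 17 in replicate 2. Words found once in the genome had a median share of 88.3% around single genes, 84.1% in pairs and 84.9% in larger clusters. Without the genes that had less than 75% of such words, a setting added once the data were known, the shares were 39.4%, 32.8% and 6.82%. Median upstream GC was 42% in single genes, 38% in pairs and 38% in larger clusters, and its part in this difference was not tested.

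**Figure D4:**
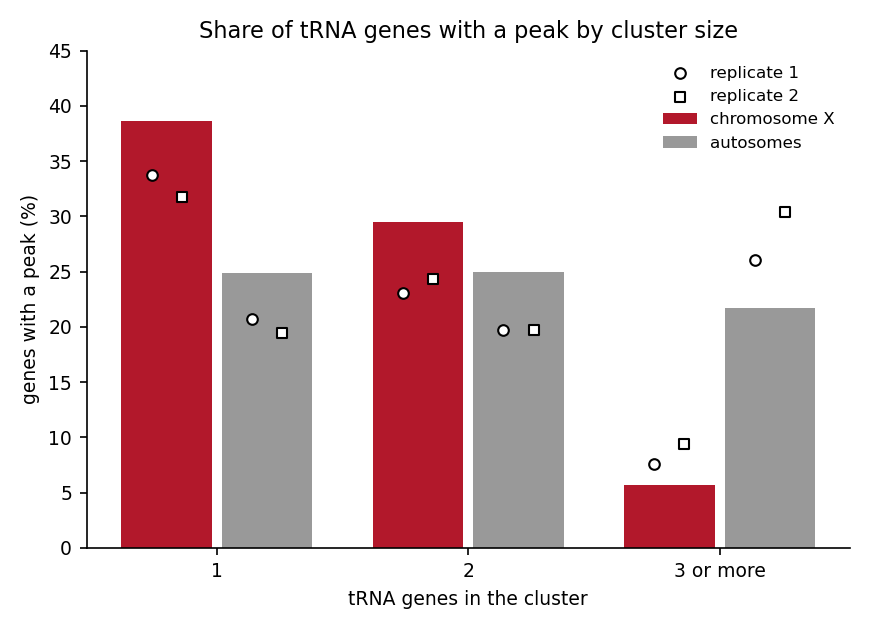
Share of tRNA genes with a peak (y axis, percent) by the number of tRNA genes in the cluster (x axis), on X (red) and on the autosomes (grey). Bars are thresholded peaks and symbols the strongest intervals of each replicate; on X the bars stand at 38.6, 29.5 and 5.66%, and on the autosomes at 24.9, 25 and 21.7%.

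Only 2 of the 14 larger clusters held a thresholded gene. They are the C16B8 proline cluster, with C16B8.t2 and C16B8.t3, and the cluster of 4 identical tyrosine genes at R11, where R11.t1 had 138 (61.2 in replicate 1 and 74.4 in replicate 2). R11.t3 had 46.6 in the pooled list, and R11.t2 and R11.t4 were not scored in any list. R11.t1 is the outermost of the 4 on the side of their starts.

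The largest clusters have 6 genes each. At F22F1, the serine gene F22F1.t2 and the aspartate gene F22F1.t3 share an interval of 80.1 and the methionine gene F22F1.t6 had 60.8. The serine gene F22F1.t4 was not scored in any list, and F22F1.t5 for aspartate (31.98) and F22F1.t7 for isoleucine (26.9) were scored in replicate 2 only. At F28H6, 6 identical histidine genes lie in 3 pairs whose members face each other. The outer genes F28H6.t2 (36.5 in the pooled list) and F28H6.t5 (53.2) were scored, and F28H6.t3, F28H6.t4, F28H6.t6 and F28H6.t7 between them were not. The 60 bases before F28H6.t3 and F28H6.t4 are identical at all 60 positions, and words found once made up 3.18% around each of them, against 85.8% around F28H6.t2. The share was 4.88% around F28H6.t6 and 33.5% around F28H6.t7, and how the authors treated reads with several places is not stated in the sources used here.

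Some neighbours at the closest range shared 1 peak, which the reach of 250 bp makes likely for any summit between their starts. There are 26 neighbouring pairs of X tRNA genes with starts within 250 bp, and 21 of them are divergent, 18 of these of 1 isotype and 9 of identical sequence. In 6 divergent pairs both genes had a thresholded peak, and in 1 pair a single gene had. Of 3 tandem pairs 2 had peaks at both genes, F15G9 and C16B8, and of 2 convergent pairs none had. Of the 49 X tRNA genes with another tRNA start in reach, 17 (34.7%) had a thresholded peak, near the 29.7% of all X tRNA genes. Their shares were 22.4% in replicate 1 and 30.6% in replicate 2. A summit between divergent starts is counted for both genes, and the data do not tell which gene it belongs to.

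Only summits within 250 bp of the gene start were scored, so their closeness to the gene is set by the rule. The values below describe position inside that window. In the pooled list the median summit was 17.5 bp inside the gene, with quartiles at -28.8 and 60 bp, where negative values are upstream. The medians were 25 bp in replicate 1 and 5 bp in replicate 2. Within 100 bp of the start lay 79.5% of the 210 summits, and 92 (43.8%) lay inside the gene. For single genes the medians were 32 bp in the pooled list, 30.5 bp in replicate 1 and 21 bp in replicate 2. Over all scored autosomal tRNA genes the medians were 31 bp in the pooled list, 33 bp in replicate 1 and 28 bp in replicate 2. Each was higher than the median over all scored X tRNA genes in the same list. For the 56 single X genes with a thresholded peak, the 2 replicate summits were a median of 31 bp apart. That is a distance within genes and does not measure the error of a median over genes.

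**Figure D5:**
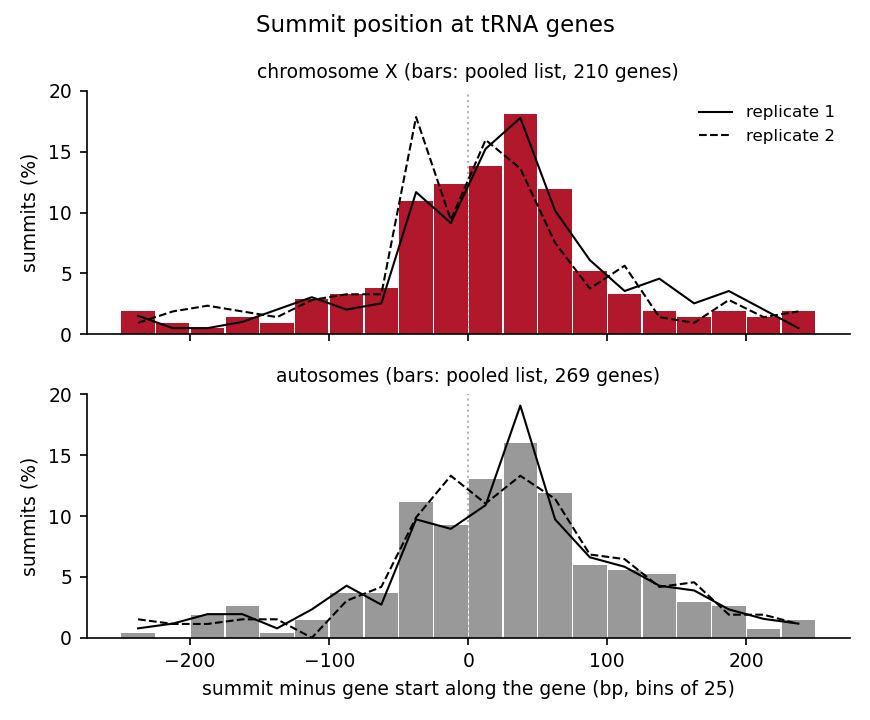
Distance from the gene start to the summit along the gene (x axis, bp, bins of 25), as a percent of the scored genes (y axis), for X in the upper panel (210 genes) and the autosomes in the lower panel (269 genes). Bars show the pooled list and lines the replicates, and the bars of both panels are highest between 25 and 50 bp inside the gene.

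Host genes went with a small difference whose size was not settled. Of the 96 X tRNA genes inside a protein-coding gene, 30 (31.3%) had a thresholded peak, against 52 of 180 outside (28.9%), a difference of 2.36 percentage points. Replicate 1 had 29 inside (30.2%) and 42 outside (23.3%), and replicate 2 had 28 (29.2%) and 42 (23.3%). These differences, 6.88 and 5.83 points, are larger than that in the thresholded list. Inside hosts, 16 of 45 genes on the strand opposite to the host (35.6%) and 14 of 51 on the same strand (27.5%) had one. These shares were 33.3% and 27.5% in replicate 1, and 28.9% and 29.4% in replicate 2, so the replicates did not hold 1 order. The hosts are 68 genes, and 1 tRNA gene overlaps an exon of its host. On the autosomes the order was the other way, with 42 of 194 inside (21.6%) and 41 of 142 outside (28.9%). Genes on the plus strand had 44 of 136 and those on the minus strand 38 of 140.

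The genes are spread unevenly along X. Over 5 stretches of equal length from the left end, thresholded peaks lay at 14 of 27, 13 of 30, 20 of 89, 26 of 74 and 9 of 56 tRNA genes. The left stretches thus had few tRNA genes and the largest shares with a peak, and the right end the smallest share. Replicate 1 had 11, 13, 17, 23 and 7 genes and replicate 2 had 12, 12, 16, 22 and 8. Of the 72 thresholded peaks at X tRNA genes, 44 had the start of a gene of the biotype ncRNA in reach, 2 a protein-coding start and 1 a piRNA start, with 1 peak counted under both ncRNA and protein-coding. The other 26 had no start in reach apart from those of tRNA genes. Intervals at X tRNA genes without a thresholded peak, such as F38G1.t1 and Y59E1B.t2, also had an ncRNA start in reach. The share over all intervals was not computed, so the 44 cannot be read as a trait of these peaks.

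The protein-coding genes of the tRNA pathway did not carry such peaks at their starts. Of 18 genes for RNA polymerase III and its factors, among them the TFIIIB subunit gene brf-1, the TFIIIC subunit gene tftc-3 and the TATA-binding protein gene tbp-1, 0 had a thresholded summit in reach. Of 20 genes for cytosolic aminoacyl-tRNA synthetases, which load the tRNAs, 0 had one. Both counts were also 0 in the strongest intervals of each replicate. The share of all 19973 protein-coding genes was 0.411%, so lists of this size would seldom hold one at the background share.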

How the data were processed

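Per the labels, the 4 interval lists that the authors deposited use assembly ce11. There is 1 for each replicate, 1 for the pooled replicates and 1 thresholded by the irreproducible discovery rate. Text files deposited with the samples name each list's parent alignments and the 1 control alignment. Aligner, peak caller, settings and the treatment of reads that map to several places are not stated in the sources used here. The authors deposited a signal value per interval, of unstated scale, and a summit offset. The signal ranks and describes intervals within a list. No values were rescaled between replicates, and depth is unknown.

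Summits within 250 bp of gene starts were scored with Python 3.11.15, pandas 2.3.3, numpy 2.4.6 and scipy 1.17.1; the scoring was tested on simulated data. Genes, biotypes and exons came from Ensembl release 115, symbols, tRNA products and sequence from the RefSeq annotation and FASTA of WBcel235. Symbols were found for all 276 genes. Anticodons were read from the spliced gene by the fit of the flanking stem of 5 base pairs (at least 4 paired). Upstream GC was taken over 100 bases, and T runs of at least 4 were sought in 40 bases after the gene. Identical copies and words of 31 letters were counted on both strands of the whole genome, and boxes on the gene's strand, the A box in the first 30 bases. Exact binomial intervals (95%, Clopper-Pearson) cover counting error only. Replicates are separate biological replicates of 1 group, so there was no test between conditions, and means ± SD are over 2 replicates.

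Named genes were the 10 of highest pooled signal with genes sharing their interval, the highest of each isotype, the 3 highest and 3 lowest replicate ratios, the 3 just inside and outside the thresholded list, the largest cluster, and the highest and lowest copies in the 3 largest identical groups. The text also names genes picked with their values in view. The members, lists and questions were chosen with earlier results of these data known. Of 21 synthetase symbols listed, vars-2 was not found in the annotation. Alternatives varied the reach, the distance measured, the list, the cluster gap, shared intervals, identical sequences and each replicate alone.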

Additional observations from a re-analysis of the deposited data

How the results depend on the processing

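Of 39 alternatives, 23 stayed within the spread between replicates, or within 1.5 times for a count, and 16 moved by more. No difference between groups and no median summit position changed sign. The counts, the alanine share and the replicate ratio cannot change sign, so this does not bear on them. The count of X tRNA genes with a peak, 82, ran from 55 (250 strongest peaks) to 85 (reach of 500 bp). The difference between X and autosomes (5.01 points) was 4.76 with a reach of 100 bp, 5.20 with 500 bp, 7.13 with the 250 strongest peaks and 4.04 with shared intervals counted once. The difference between clustered and single genes (-18.8) was -11.7 with a gap of 500 bp and -9.83 with 5000 bp, and -17.0 to -13.4 with 1 replicate left out. The alanine share (76.9%) was 61.5 to 76.9% with 1 replicate left out and 100% with identical sequences counted once, where a sequence counts if any copy has a peak. The difference between genes inside and outside hosts (2.36 points) was 3.19 with a reach of 100 bp, 0.694 with 500 bp, and 5.83 to 6.88 with 1 replicate left out. It is the value least settled here. The difference between only copies and genes with further copies (-14.4) was -17.8 with copies allowed 1 mismatch, -25.7 in single genes alone, which was chosen after seeing the data, and -14.0 to -11.2 with 1 replicate left out. The cause of these shifts was not tested, apart from the lists and genes that each setting removes. No paired analysis was possible because the series holds 1 group. Only 2 replicates and 1 shared control stand behind every value, and genes that share an interval or a sequence are not independent.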
